A study of Rattus norvegicus with 12 samples.

Results

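The gluconeogenic enzymes considered here are Pck1, G6pc1, Fbp1 and Tat, taken as every probe set that the array's annotation assigns to one of these symbols alone. Of the 4 genes, 3 had such a probe set, with 1 each, among 4736 genes with a probe set of their own and 8740 probe sets tested. G6pc1 shared both of the 2 probe sets that carry its symbol with other genes, so no value is given for it. The probe set of Pck1 was K03243mRNA_s_at, that of Fbp1 was M86240_at and that of Tat was X02741_s_at. The ending s_at marks a probe set whose probes can also match related transcripts.

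Livers came from male Sprague-Dawley rats of 150 g at the start, all of them cannulated in the stomach and overfed liquid diets by 17% of calories for 21 days. The 4 diets held 5% corn oil, 70% corn oil, 5% olive oil or 70% olive oil, with 3 arrays each and 1 pool of liver RNA per array. Corn oil is rich in polyunsaturated and olive oil in monounsaturated fatty acids. The diets were isocaloric and the fat to carbohydrate ratio varied, so the rats on 70% fat also received less carbohydrate, and no group was fed chow or fed at a normal level. The labels name the pools by number and say nothing of the rats in each, so a p-value here is relative to the variation among pools, part of which may be technical. Each value is a log2 difference from the median of that probe set over the 12 arrays. No absolute level is known, genes cannot be ranked by abundance, and whether the markers of liver are present cannot be checked.

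Gluconeogenesis makes glucose in the liver from lactate, glycerol and amino acids, and it is known to be raised by glucagon and glucocorticoids and lowered by insulin, which rises with dietary carbohydrate. Pck1, the cytosolic phosphoenolpyruvate carboxykinase, turns oxaloacetate into phosphoenolpyruvate and is controlled mainly through its transcription. Fbp1, the liver fructose bisphosphatase, reverses the phosphofructokinase step, and G6pc1 is the catalytic subunit of the phosphatase that releases free glucose. Tat, the tyrosine aminotransferase, starts the breakdown of tyrosine and is a classic target of glucocorticoids and glucagon in hepatocytes.

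The 250 bases before the start site of each measured gene are shown because the hormonal control of these genes, of Pck1 above all, runs through their promoters. They come from RefSeq on the GRCr8 assembly, in which all 3 measured genes were found, and run 5′ to 3′ on the plus strand, with Pck1 at chr3:182348322-182348571, Fbp1 at chr17:2213457-2213706 and Tat at chr19:54856354-54856603. Capitals mark matches to the motifs searched on both strands without mismatch, which were the cAMP response element core TGACG, the glucocorticoid response element core AGAACA, the forkhead motif GTAAACA and the TATA box TATAAA.
Pck1: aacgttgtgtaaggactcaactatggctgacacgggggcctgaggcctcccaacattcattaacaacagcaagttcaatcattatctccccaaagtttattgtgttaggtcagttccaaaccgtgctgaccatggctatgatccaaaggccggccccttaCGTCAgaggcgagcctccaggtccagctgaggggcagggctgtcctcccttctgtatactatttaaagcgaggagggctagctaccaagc
Fbp1: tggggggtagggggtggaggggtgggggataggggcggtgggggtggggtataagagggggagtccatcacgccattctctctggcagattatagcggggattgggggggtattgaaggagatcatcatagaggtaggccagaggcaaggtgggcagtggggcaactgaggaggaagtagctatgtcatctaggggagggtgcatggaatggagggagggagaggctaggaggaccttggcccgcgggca
Tat: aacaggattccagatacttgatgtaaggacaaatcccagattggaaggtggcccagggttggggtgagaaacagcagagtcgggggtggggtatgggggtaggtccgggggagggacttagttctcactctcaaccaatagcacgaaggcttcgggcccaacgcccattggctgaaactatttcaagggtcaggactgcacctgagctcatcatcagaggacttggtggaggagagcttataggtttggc
The only match was TGACG on the minus strand of Pck1, read as CGTCA in the line above, with its first base 90 bases before the start site. This core occurred in 18.2% of 33469 promoters of the same length, AGAACA in 17.5%, GTAAACA in 3.21% and TATAAA in 12.9%. The window of Fbp1 lies inside the annotated span of the gene, whose GC content there was 61.2%, against 52.0% for Pck1, 54.0% for Tat and a median of 51.2% over all promoters. A match is a description of letters and was not tied to the measurements.

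Pck1 was lower on most arrays with corn oil than with olive oil, Fbp1 was lower on every array with corn oil, and Tat showed no difference that passed the test between any diets. The mean of both oil contrasts put Pck1 2.42-fold lower and Fbp1 1.29-fold lower with corn oil. No member passed the test between 5% and 70% fat with either oil. The oils also differed in a measure of RNA or labelling quality, given beside these results below.

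Pck1 stood at -1.92, -0.28 and -0.77 in pools 1, 2 and 3 of 5% corn oil and at -0.40, 0.26 and -0.26 in those of 70% corn oil. With olive oil it stood at -0.84, 1.21 and 1.13 in the pools of 5% fat and at 0.80, 0.91 and 1.09 in those of 70% fat. Of the 6 corn oil arrays 5 lay below 0, and of the 6 olive oil arrays 1 did, pool 1 of 5% olive oil. From lowest to highest, Pck1 averaged -0.99 ± 0.84 on 5% corn oil, -0.13 ± 0.35 on 70% corn oil, 0.50 ± 1.16 on 5% olive oil and 0.93 ± 0.15 on 70% olive oil (mean ± SD of 3 arrays per diet). The arrays of each pair of neighbouring diets in that order overlapped.

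Fbp1 varied over a narrower range. It stood at -0.44, -0.34 and -0.19 in pools 1, 2 and 3 of 5% corn oil and at -0.11, -0.07 and -0.32 in those of 70% corn oil. In the pools of 5% olive oil it stood at 0.08, 0.07 and 0.19, and in those of 70% olive oil at 0.10, 0.21 and 0.07. All 6 corn oil arrays lay below all 6 olive oil arrays, while the arrays of both fat levels overlapped within each oil. Its averages on 5% and 70% corn oil were -0.32 ± 0.13 and -0.17 ± 0.13, and on 5% and 70% olive oil 0.11 ± 0.06 and 0.13 ± 0.07 (mean ± SD of 3 arrays per diet). In the order of these means the step from 70% corn oil to 5% olive oil was the only step between neighbours whose arrays lay apart.

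Tat showed no order of the diets beyond its spread. It stood at -0.37, 0.19 and -0.17 in pools 1, 2 and 3 of 5% corn oil, at -0.03, 0.19 and -0.37 in those of 70% corn oil, at 0.11, 0.04 and -0.31 in those of 5% olive oil and at -0.05, 0.29 and 0.03 in those of 70% olive oil. Its averages ran from -0.12 ± 0.28 on 5% corn oil through -0.07 ± 0.29 on 70% corn oil and -0.05 ± 0.22 on 5% olive oil to 0.09 ± 0.18 on 70% olive oil (mean ± SD of 3 arrays per diet), and neighbouring diets overlapped at every step.

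**Figure D1:**
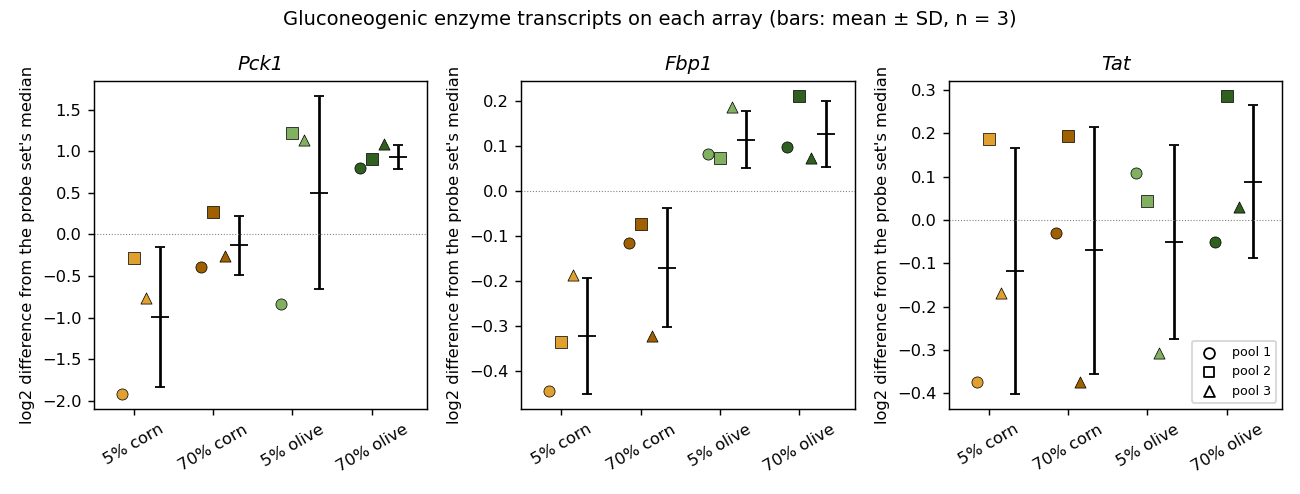
Log2 difference from the median over the 12 arrays (y axis) for Pck1, Fbp1 and Tat, with 1 point per array, coloured by diet (x axis) and shaped by pool, and bars for the mean ± SD of 3 arrays. The 6 corn oil arrays of Fbp1 lie below its 6 olive oil arrays, pool 1 of 5% olive oil stands at -0.84 for Pck1, and the diets of Tat overlap.

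The members differed in how much they varied within a diet. The residual SD of Pck1, the spread left within diets, was 0.742 log2 and was larger than that of 99.6% of the probe sets tested, whose median was 0.140. That of Tat was 0.247, larger than 86.8% of probe sets, and that of Fbp1 was 0.105, larger than 23.2%. For Fbp1 the oil took 76.7% of the sum of squares over the arrays and the fat level 3.88%. For Pck1 the oil took 45.8%, the fat level 11.6% and the spread within diets 41.3%. For Tat the spread within diets took 87.3%. Over all probe sets the medians were 17.7% for the oil, 6.16% for the fat level and 54.6% within diets.

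The fat level contrasts ask how less carbohydrate and more fat at equal calories moved these transcripts. With corn oil Pck1 was at 1.81-fold in 70% against 5% fat (log2 change 0.86 ± 0.50 SE, limma adjusted p = 0.387), with a 95% confidence interval from 0.855-fold to 3.84-fold. With olive oil it was at 1.35-fold (0.43 ± 0.50 SE, adjusted p = 0.918), with an interval from 0.636-fold to 2.85-fold. Without pool 1 of 5% olive oil this change of Pck1 turned to -0.24. Over both oils Pck1 was at 1.56-fold (0.64 ± 0.35 SE, adjusted p = 0.455), with an interval from 0.919-fold to 2.66-fold, so a rise of more than 2-fold was within the error of these arrays. The changes of Fbp1 were bounded more closely, from 0.962-fold to 1.28-fold with corn oil and from 0.874-fold to 1.16-fold with olive oil. Those of Tat lay between 0.792-fold and 1.35-fold with corn oil and between 0.844-fold and 1.44-fold with olive oil.

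By limma, 0 of 3 members passed in the fat contrast of either oil and in their mean, and 0 had an unadjusted p under 0.05 there. Of all probe sets, 2.11% passed with corn oil, 0.435% with olive oil and 2.28% for the mean. A count of 0 of 3 is near these background shares. The fat effects of the oils did not pass a test of their difference for Pck1 (0.43 ± 0.70 SE, adjusted p = 0.868), Fbp1 (0.14 ± 0.13 SE, adjusted p = 0.726) or Tat (-0.09 ± 0.25 SE, adjusted p = 0.927). That test called 0 of 8740 probe sets, of which 1028 had an unadjusted p under 0.05.

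The oil contrasts ask how the type of fat moved the members at an equal share of fat. At 5% fat Fbp1 was 1.35-fold lower with corn oil (-0.44 ± 0.10 SE, limma adjusted p = 0.00719), without overlap between the 3 arrays of each oil, and the call held in each fit with 1 array left out. Such a separation, with corn oil lower, occurred in 16.2% of all probe sets. Pck1 was at 35.6% of its olive oil level (-1.49 ± 0.50 SE, adjusted p = 0.0554) and did not pass. Pck1 passed without pool 2 of 5% corn oil (-1.84, adjusted p = 0.0420) or without pool 1 of 5% olive oil (-2.16, adjusted p = 0.00364), and with array weights (-1.48, adjusted p = 0.0396). Tat was at 95.5% (-0.07 ± 0.18 SE, adjusted p = 0.834). So 1 of 3 members was lower by the test at 5% fat, where 9.36% of all probe sets were lower and 19.5% passed in either direction.

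At 70% fat 0 of 3 members passed by limma, and 1 had an unadjusted p under 0.05, where 4.55% of all probe sets were lower and 8.51% passed in either direction. Pck1 was at 47.9% of its olive oil level (-1.06 ± 0.50 SE, adjusted p = 0.221) and Fbp1 at 81.4% (-0.30 ± 0.10 SE, adjusted p = 0.0762). In both genes the 3 corn oil arrays lay below the 3 olive oil arrays, as they did in 13.4% of all probe sets. A fit on the arrays of both groups alone called Pck1 (adjusted p = 0.0319). Tat was at 89.6% (-0.16 ± 0.18 SE, adjusted p = 0.663).

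Over both fat levels Pck1 (-1.28 ± 0.35 SE, adjusted p = 0.0191) and Fbp1 (-0.37 ± 0.07 SE, adjusted p = 0.00177) were lower with corn oil, calls that held in each fit with 1 array left out. For Pck1 the adjusted p reached 0.0496, without pool 2 of 5% olive oil. Fbp1 was among the 5.62% of probe sets whose 6 corn oil arrays all lay below the 6 olive oil arrays. Tat (-0.11 ± 0.12 SE, adjusted p = 0.565) did not pass, with an interval from 0.766-fold to 1.12-fold. That is 2 of 3 members lower, where 11.1% of all probe sets were lower and 24.3% passed in either direction. By size, 1.29% of probe sets differed more between the oils than Pck1 did, and 16.9% more than Fbp1. The oils are compared over the same 12 arrays in these contrasts, so the mean repeats the contrasts at each fat level.

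**Figure D2:**
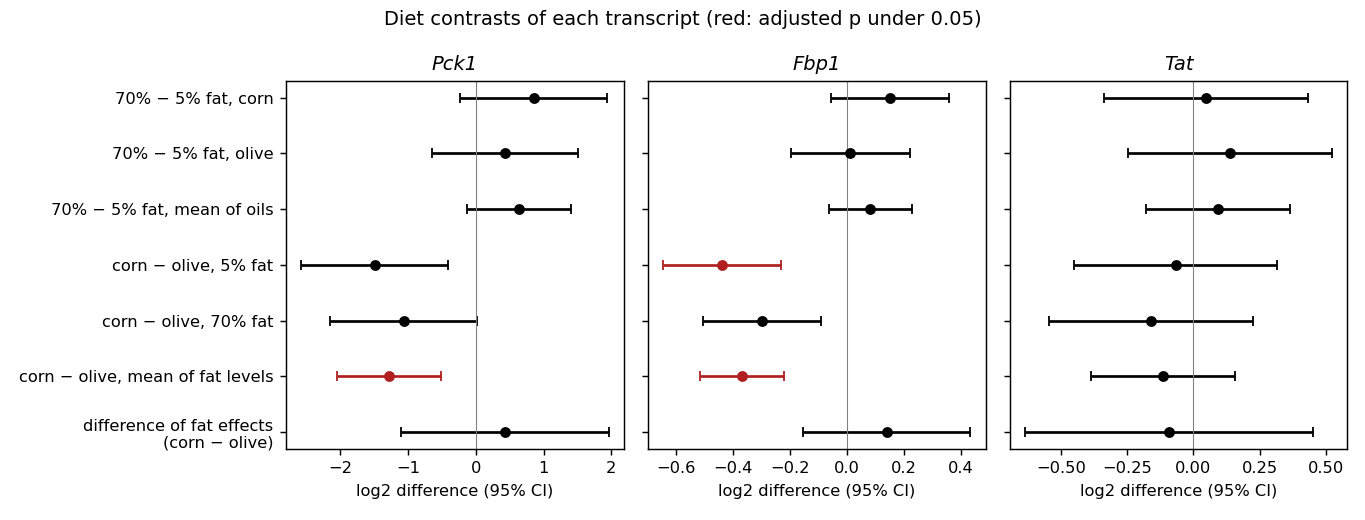
Log2 differences (x axis) of Pck1, Fbp1 and Tat for the 7 contrasts (y axis), as the estimate of the linear model with its 95% confidence interval, on a separate x scale for each gene. Fbp1 at 5% fat and the oil means of Pck1 and Fbp1 are drawn in red, which marks an adjusted p under 0.05, and the intervals of the fat contrasts include 0 in every panel.

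The arrays of the oils also differed in the 3′/5′ index, which rises when the RNA or its copies are shortened. It is the mean difference between the 3′ and 5′ control probe sets of actin and GAPDH. These values are median-centred too, so the index only compares the arrays with each other. An index below 0 does not mean that the 5′ signal exceeded the 3′ signal. On the log2 scale it averaged 1.28 ± 0.28 on 5% corn oil and 0.71 ± 0.48 on 70% corn oil, against -0.36 ± 0.06 and -0.35 ± 0.10 on 5% and 70% olive oil (mean ± SD of 3 arrays per diet). No corn oil array overlapped the olive oil arrays. With the index as a covariate the oil difference over both fat levels was 0.11 ± 1.03 (SE, limma adjusted p = 0.988) for Pck1, -0.0043 ± 0.18 (SE, adjusted p = 0.999) for Fbp1 and 0.41 ± 0.36 (SE, adjusted p = 0.859) for Tat, and 0 of 8740 probe sets passed in any oil contrast. The SE of Pck1 went from 0.35 to 1.03 and that of Fbp1 from 0.07 to 0.18. The effect of the oil and that of the index on these members cannot be told apart between the oils. The index also differed between the corn oil diets, by -0.56 from 5% to 70% fat, against 0.018 between the olive oil diets. With the index as a covariate the fat change with corn oil went from 0.86 to 0.28 ± 0.62 (SE, adjusted p = 0.870) for Pck1, from 0.15 to 0.0013 ± 0.11 (SE, adjusted p = 0.997) for Fbp1 and from 0.05 to -0.17 ± 0.22 (SE, adjusted p = 0.758) for Tat. With olive oil it was 0.45 for Pck1, 0.02 for Fbp1 and 0.15 for Tat.

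Within the corn oil arrays Fbp1 was lower at every step up in the index. Spearman's rho over these 6 arrays was -1 (exact permutation p = 0.00278, the smallest that 6 arrays can give, adjusted p = 0.0167 over 6 relations). These arrays span both corn oil diets, which differ in the index and in the mean of Fbp1, and the permutation exchanges arrays between the diets, so the p reflects that difference too. With 3 arrays a diet the relation was not tested within a diet. Pearson's r was -0.86 (exact permutation p = 0.0181, adjusted p = 0.108), and -0.74 once the 2 arrays with the most extreme index were left out. For Pck1 on the same arrays Pearson's r was -0.73 (exact permutation p = 0.151, adjusted p = 0.454) and rho was -0.54 (exact permutation p = 0.297, adjusted p = 0.446). Without the 2 farthest arrays r of Pck1 was 0.50, so that relation rests on those arrays. For Tat on the same arrays Pearson's r was -0.48 (exact permutation p = 0.349, adjusted p = 0.523) and rho was -0.54 (exact permutation p = 0.297, adjusted p = 0.446), with r at 0.67 without the 2 farthest. Within the 6 olive oil arrays, whose index ran only from -0.43 to -0.23, the adjusted permutation p was at least 0.446 for each member and either coefficient.

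**Figure D3:**
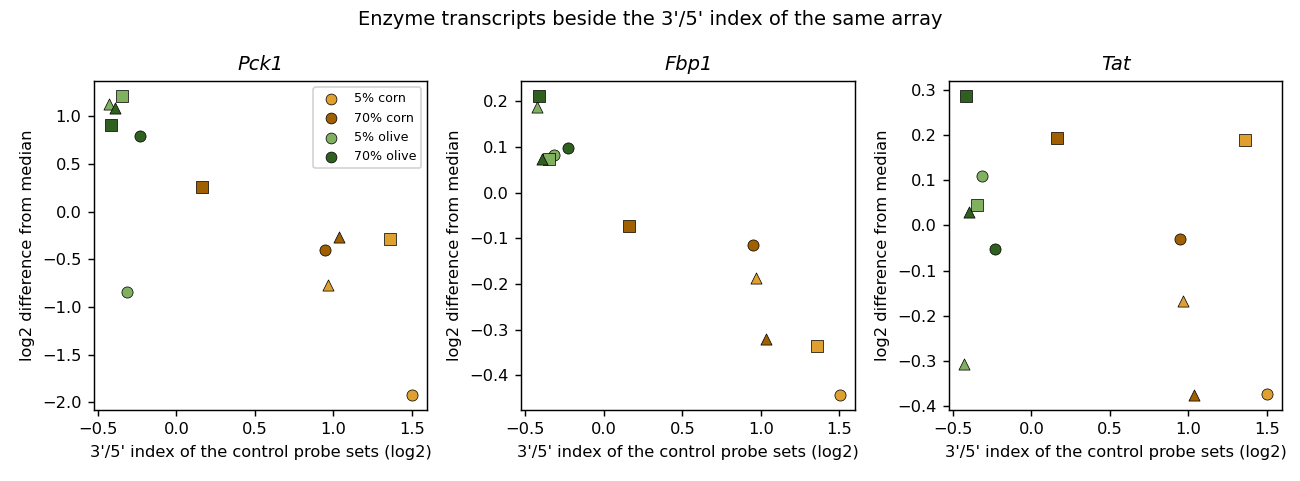
Log2 difference from the median (y axis) of Pck1, Fbp1 and Tat against the 3′/5′ index of the same array in log2 (x axis), with 1 point per array, coloured by diet and shaped by pool. The olive oil arrays lie at an index from -0.43 to -0.23 and the corn oil arrays at 0.16 or more, and Fbp1 steps down with each step of the index among the corn oil arrays.

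Marker genes of liver cell types differed between the diets as well. In the arrays of whole liver, fewer cells of a type and less RNA per cell cannot be told apart. The mean of the 8 measured of 9 hepatocyte markers ran from -0.31 to -0.19 with 5% corn oil and from -0.08 to 0.08 with 5% olive oil, and of its 23 probe sets 5 were lower and 2 higher with corn oil by the test over both fat levels. At 70% fat that mean ran from -0.02 to 0.12 with corn oil and from 0.06 to 0.09 with olive oil. The mean of 7 of 9 stellate cell and fibroblast markers ran from 0.15 to 0.34 with 5% corn oil and from -0.26 to -0.09 with 5% olive oil. At 70% fat it ran from 0.09 to 0.25 with corn oil and from -0.09 to -0.01 with olive oil. Of its 14 probe sets, 4 were higher with corn oil by the test at 5% fat and 1 at 70% fat, and 0 were lower. Over both fat levels 4 were higher and 1 lower. Adipose markers, 3 of 4 measured, ran from 0.17 to 0.27 with 5% corn oil and from -0.13 to -0.03 with 5% olive oil, and at 70% fat from 0.0011 to 0.21 and from -0.25 to -0.06. These genes were not alike. Cfd was higher with corn oil by 0.66 at 5% fat and by 0.85 at 70% fat, and passed at both. Plin1, at 0.17 and 0.03, did not pass. The 3 probe sets of Lep were at 0.32, which passed, 0.01 and -0.23 at 5% fat. At 70% fat they were at 0.10, -0.18 and -0.38, and none passed. Endothelial markers, 4 of 8 measured, overlapped between the oils at 5% fat and ran at 70% fat from -0.05 to 0.04 with corn oil and from -0.40 to -0.25 with olive oil. The genes of this mean were split. At 70% fat Lyve1 was higher with corn oil by 1.09 and passed. Kdr at 0.39, Pecam1 at -0.12 and Vwf at 0.07 and 0.0043 did not pass. At 5% fat Kdr and Lyve1 passed as higher, at 0.56 and 0.89, and Pecam1 passed as lower, at -0.42. With fat 3 of the hepatocyte probe sets rose, all of the cytochrome Cyp2e1, by 0.88, 0.66 and 1.12, and 0 fell. Kupffer cell markers, 8 of 12 measured, averaged from 0.03 to 0.29 with 5% olive oil and from -0.38 to -0.17 with 70% olive oil. With corn oil they overlapped between the fat levels, from 0.0050 to 0.26 at 5% and from -0.07 to 0.19 at 70%. At 70% fat this mean thus lay apart between the oils, but of its 13 probe sets only 1 was higher with corn oil by the test and 0 lower. Aif1 was at 0.59, 0.55 and -0.26 on its probe sets there and did not pass. The mean of red blood cell markers, 2 of 4 measured, also did there, from -0.49 to -0.33 with corn oil and from -0.11 to 0.17 with olive oil. Neither gene passed by the test at 70% fat, with Hbb at -0.54 and Alas2 at -0.30. The part of these markers in the values of Pck1 and Fbp1 was not tested.

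Around the members, 75 of 108 genes from 8 lists of related pathways were measured, by 139 probe sets. Over both oils, 70% fat was followed by 4 higher and 5 lower probe sets in these lists, 6.47% of them against 2.28% of all. The list of opposing glycolytic steps held most of the lower ones. Of the 11 probe sets of its 6 genes 4 fell and 0 rose, with a list median of -0.11 against 0.01 over all probe sets. These falls came from 2 genes, Pklr and Pfkfb1. Gckr, at -0.26, did not pass, nor did the probe sets of Pfkl, Pfkfb2 and Pfkfb3, which lay from -0.01 to 0.05. Pklr, the liver pyruvate kinase, which turns phosphoenolpyruvate, the product of Pck1, into pyruvate, fell by 1.70 ± 0.18 (SE, adjusted p = 0.000276). Of the 4 probe sets of Pfkfb1, the enzyme that makes and removes the inhibitor of Fbp1, 3 fell, by 1.02, 0.77 and 0.36. The smallest of these did not pass (adjusted p up to 0.0669) when pool 2 of 5% corn oil, pool 1 or 2 of 5% olive oil or pool 3 of 70% olive oil was left out. Pklr and the other calls of Pfkfb1 passed in every fit with 1 array left out, and all 4 calls passed with the index as a covariate.

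Of the 24 probe sets of 12 other genes on the gluconeogenic route 1 fell with fat and 0 rose. That was Mdh1, the cytosolic malate dehydrogenase, which fell by 0.48 ± 0.10 (SE, adjusted p = 0.0238), but did not pass (adjusted p up to 0.0695) when pool 1 or 3 of either olive oil diet was left out. The median of that list was -0.14, and 10 of its 24 probe sets had an unadjusted p under 0.05, as did 14.5% of all probe sets. Pc, the pyruvate carboxylase that supplies oxaloacetate, was at -0.32 and -0.26 on its 2 probe sets (adjusted p = 0.145 and 0.201). The glucose phosphate transporter Slc37a4, the partner of G6pc1, was at -0.24 and -0.26 (adjusted p = 0.503 and 0.296).

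Genes of amino acid breakdown rose with fat on 4 of 35 probe sets, all of Hpd or Agxt, and fell on 0. Of all probe sets 2.28% passed in this contrast in either direction, and 54.8% of those calls were higher. Besides Tat, the tyrosine pathway held 6 probe sets of 3 genes, of which 1 of Hpd rose by 0.47 ± 0.11 (SE, adjusted p = 0.0405). The other probe sets of Hpd did not pass, at 0.47 and -0.07 (adjusted p = 0.0891 and 0.850). The call of Hpd was lost with the index as a covariate, after a second quantile normalization, with each array centred and with the pool number as a term. It was kept only without pool 3 of 5% corn oil, pool 1 of 5% olive oil, pool 2 of 70% corn oil or pool 3 of 70% olive oil among the 12 fits with 1 array left out. Of the 29 probe sets of other amino acid genes 3 rose, all of them of Agxt, the alanine-glyoxylate aminotransferase that is induced by glucagon, by 0.61, 0.53 and 0.47. The first passed in every fit with 1 array left out and with the index. The others did not pass with the index (adjusted p = 0.0843 and 0.0848) or after a second quantile normalization. Among the fits with 1 array left out the second passed only where the omitted array was pool 2 or pool 3 on 5% corn oil or pool 2 on 5% olive oil, and it did not pass with array weights.

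By limma, 0 probe sets passed with fat among the 10 for entry of lactate, glycerol and alanine (2 with an unadjusted p under 0.05), the 9 of glycogen metabolism (2), the 38 of hormone signals and transcription factors (7) and the 12 of hormone-responsive liver genes (3). Of all probe sets 14.5% had an unadjusted p under 0.05. Igfbp1, of the hormone-responsive list and chosen here after its values had been seen, was at -1.01 ± 0.43 (SE, adjusted p = 0.303). The median of that list was -0.0088 against 0.01 over all probe sets. Pdk4 of the same list stood at -0.99, -0.62 and -0.43 on 5% corn oil and at -0.23, -0.33 and -0.10 on 70% corn oil. With olive oil it stood at 0.12, 0.10 and 1.04 on 5% fat and at 0.79, 0.94 and 0.69 on 70% fat. Ppargc1a and Crtc2 had no probe set of their own symbol alone.

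Between the oils 40 of the 139 listed probe sets were lower with corn oil and 17 higher, together 41.0% against 24.3% of all. On the gluconeogenic route 8 of 24 were lower and 2 higher. Slc37a4 was at -0.71 ± 0.14 (SE, adjusted p = 0.00349) on 1 probe set and at -0.25 (adjusted p = 0.118) on the other. Of the 10 probe sets of genes that bring in substrate 4 were lower and 2 higher. Slc16a1, which carries lactate, was lower on both probe sets, at -1.50 and -0.45 (adjusted p = 0.000137 and 0.0356). The second call was lost in 8 of the 12 fits with 1 array left out, and held when pool 2 or pool 3 on 5% corn oil, pool 1 on 5% olive oil or pool 3 on 70% corn oil was the one omitted. Gpd1, the glycerol phosphate dehydrogenase, was at -1.05 ± 0.09 (SE, adjusted p = 2.19e-05) and Aqp9, the glycerol channel, at -0.55 ± 0.09 (SE, adjusted p = 0.000796). Gpd2, the mitochondrial glycerol phosphate dehydrogenase, was higher at 0.58 ± 0.10 (SE, adjusted p = 0.00145) on 1 of its 3 probe sets, with the others at 0.01 and -0.0031. Ldhb, a lactate dehydrogenase subunit, was higher at 0.47 ± 0.15 (SE, adjusted p = 0.0418) on 1 of 2 probe sets, a call lost in 8 of the 12 fits with 1 array left out, after a second quantile normalization and with each array centred. Pdk4, the kinase that shuts the pyruvate dehydrogenase complex, was at -1.07 ± 0.16 (SE, adjusted p = 0.000397). Hormone signals and transcription factors had 9 lower and 6 higher of 38 probe sets, in 12 genes. Their list median was 0.01 against 0.03 over all probe sets. Of these genes, Cebpa was at -0.65 and Hnf4a at -0.54 on 1 probe set each, with adjusted p = 0.000254 and 0.00135. The glucocorticoid receptor Nr3c1 was at 0.65 (adjusted p = 4.74e-05). The other probe sets of these 3 genes lay on the same side of 0 and did not pass.

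Probe sets of a single gene often moved in opposite directions between the oils. Of 11 listed genes with at least 2 probe sets past the test, 7 were called in both directions, as were 97 of 239 such genes over the whole array. Hpd stood at -0.38 and 0.83, Slc25a10 at -0.76 and 0.42 and Cebpb at -0.49 and 0.29. With 1 array left out the first value of Hpd and of Cebpb lost the call in 9 of 12 fits each. In the mean fat contrast 0 of 25 genes with at least 2 called probe sets were called in both directions. Pck1, Fbp1 and Tat have 1 probe set each, so this check cannot be made for them. With the index as a covariate 38 of the 57 listed oil differences kept their sign and 0 passed, while of the 9 fat changes 9 kept their sign and 6 passed.

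**Figure D4:**
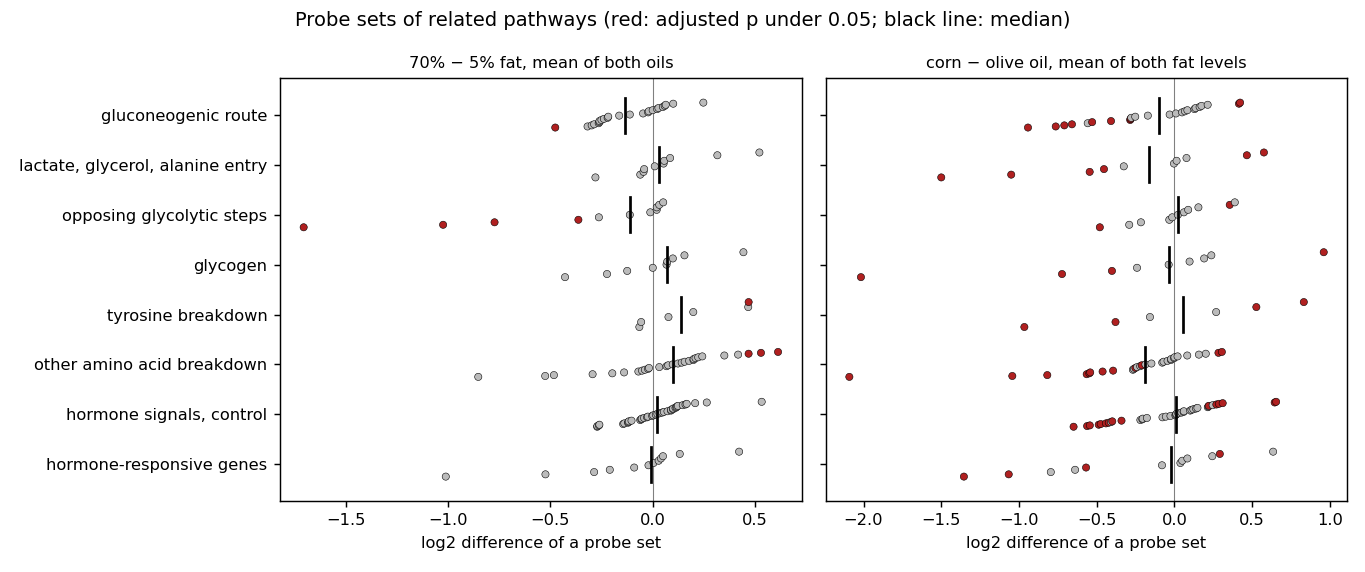
Log2 differences (x axis) of the probe sets in 8 lists of related pathways (y axis), for 70% against 5% fat over both oils (left) and corn against olive oil over both fat levels (right), with 1 point per probe set, red for an adjusted p under 0.05, and a black line at the list's median. The lower calls with fat lie mainly among the opposing glycolytic steps, where Pklr is at -1.70, while the oil calls lie on both sides of 0 in every list.

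The genes with the values nearest to those of Pck1 over the 12 arrays were Pdk4, Acot2, which encodes a mitochondrial acyl-CoA thioesterase, and Slc16a1. Nearness was the root mean square of the difference between log2 values, with the probe sets of a gene averaged. It was 0.565, 0.571 and 0.593, against 0.946 for the values of Pck1 themselves, so none was close. All 4 genes were lower on average with corn oil, with means of -0.56 for Pck1, -0.45 for Pdk4, -0.41 for Acot2 and -0.68 for Slc16a1, against 0.72, 0.61, 0.47 and 0.30 with olive oil. In pool 1 of 5% olive oil, where Pck1 was at -0.84, Pdk4 stood at 0.12, Acot2 at -0.07 and Slc16a1 at 0.01. Nearest to Fbp1 were Phaf1, Mgat1 and Ppt2, at 0.0826, 0.0871 and 0.0895 against 0.218 for Fbp1 itself. Nearest to Tat were Jtb, Uqcc4 and Dnttip1, at 0.140, 0.141 and 0.144 against 0.219 for Tat itself. As a ratio to the member's own value that is 0.639 to 0.657, against 0.597 to 0.627 for Pck1, so none of these was close either. Pck1 differed from Fbp1 by 0.804 and from Tat by 0.898, and Fbp1 from Tat by 0.230.

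**Figure D5:**
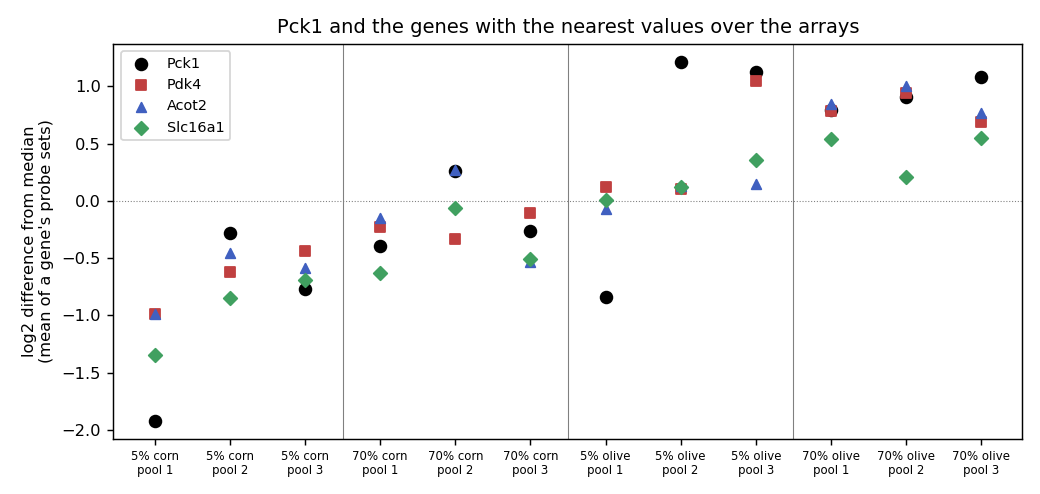
Log2 difference from the median (y axis), as the mean of a gene's probe sets, of Pck1, Pdk4, Acot2 and Slc16a1 on each of the 12 arrays (x axis, by diet and pool). The 4 genes lie below 0 in the 3 arrays of 5% corn oil and above 0 in those of 70% olive oil. Pdk4, Acot2 and Slc16a1 were picked by nearness to Pck1 on these arrays, so likeness is built in. In pool 1 of 5% olive oil Pck1 stands apart at -0.84.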

How the data were processed

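RNA of rat liver was measured on 12 single-colour Affymetrix arrays. Per the labels' protocols, 8 ug of total RNA was labelled by in vitro transcription. The authors deposited log2 values; GCOS and RMA are named in the submitters' processing notes, with no version. These were median-centred by probe set (0 within 1e-06 for 100% of them), a step no source states, so a filter on low values or signal over background cannot be had. The log base was taken as 2, as RMA gives it. For arrays their number limits the precision. The closest pair of arrays differed by 0.195 log2 (root mean square), so none was a duplicate.

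The 59 controls were left out and 8740 probe sets tested. Of these, 7006 had 1 gene symbol, 308 several and 1426 none; 6985 took the GRCr8 symbol through the gene identifier. limma 3.58.1 (R 4.3.3) gave each diet a mean, with 8 residual degrees of freedom, eBayes without a trend, and two-sided p-values adjusted by Benjamini-Hochberg over all probe sets within each of 7 contrasts at a threshold of 0.05. Fold changes are 2 to the power of log2 differences. The code was tested on simulated data.

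The members, lists, contrasts and alternatives were chosen with earlier results of these data known. Named were the members, a part of the listed genes past the test in any contrast, and the 3 genes nearest to each member. Equal pool numbers did not pair arrays: residuals of 18 same-numbered pairs correlated from -0.19 to 0.23, with 3 over 0.1.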

Additional observations from a re-analysis of the deposited data

How the results depend on the processing

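The oil differences of Pck1 and Fbp1 over both fat levels kept direction and call under quantile normalization, array centring, array weights, the replicate block and 1 value per gene, from -1.30 to -1.14 and from -0.39 to -0.33, and left-out arrays gave -1.61 to -1.04 and -0.40 to -0.33. When the 3′/5′ index entered the fit, the members past the test went from 2 to 0 over both fat levels and from 1 to 0 at 5% fat, and the probe sets called in the 3 oil contrasts went to 0, 0 and 0. There Pck1 turned to 0.19 at 5% fat, 0.024 at 70% and 0.11 for the mean, Fbp1 to 0.0039 at 5% fat, and Tat to 0.57, 0.26 and 0.41. Fat effects with the index were -0.17 (corn oil) and -0.013 (mean) for Tat, and the differences between fat effects -0.17 for Pck1 and -0.016 for Fbp1. The cause was not tested. At 5% fat 2 members passed with array weights and 2 with the pool number as a replicate block, where Pck1 had adjusted p = 0.0396 and 0.0121; 4 of 12 arrays correlated best with their own number. At 70% fat 1 member passed after quantile normalization (Fbp1, adjusted p = 0.0417) and 1 in the fit on both groups alone (Pck1). After quantile normalization Fbp1 was at -0.020 for fat with olive oil, and at -0.011 with each array centred, and the difference between fat effects of Pck1 was -0.13.

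Probe sets called for fat with corn oil went from 184 to 51 (quantile), 40 (index), 53 (arrays of both groups alone) and 120 (per gene); with olive oil from 38 to 98 (quantile), 22 (centred), 138 (weights), 64 (index) and 97 (both groups alone); for the mean from 199 to 123 (index) and 103 (per gene). For the oils they went from 1704 to 2632 (weights) and 801 (per gene) at 5% fat, from 744 to 334 (both groups alone) and 328 (per gene) at 70%, and from 2120 to 1035 (per gene) for the mean. The difference between fat effects had 2 calls with weights and 1 with the replicate block. Genes are fewer than probe sets by construction. Of calls with olive oil 28.9% were higher, and 18.2% with each array centred; with corn oil 62.0%, and 51.0% after quantile normalization.

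Leaving out 1 array gave 59 to 348 calls for fat with corn oil, 10 to 69 with olive oil, 1115 to 2065 and 311 to 1162 for the oils at 5% and 70% fat, 0 to 10 for the difference and 116 to 233 for the mean fat effect. Members called at 5% fat ran from 1 to 2. Uncalled member values that changed sign ran from -0.084 to 0.20 (Tat, fat with corn oil), -0.24 to 0.79 and -0.029 to 0.049 (Pck1 and Fbp1, fat with olive oil), -0.22 to 0.061 (Tat, oil at 5% fat), and -0.039 to 1.10 and -0.22 to 0.061 (Pck1 and Tat, difference between fat effects). A filter on low values was not run.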

Other observations

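Cps1, the carbamoyl phosphate synthetase that opens the urea cycle, and Pgm1, the phosphoglucomutase between glycogen and glucose phosphate, had the lowest oil values of the genes listed here, and in both genes another probe set did not share them. By limma over both fat levels Cps1 was at -2.09 ± 0.21 (SE, adjusted p = 4.51e-05) with corn oil on 1 probe set, and at 0.02 and 0.08 on the other two (adjusted p = 0.888 and 0.419). Pgm1 was at -2.02 ± 0.20 (SE, adjusted p = 4.74e-05) and -0.72 ± 0.13 (SE, adjusted p = 0.0015) on 2 probe sets and at 0.19 (adjusted p = 0.158) on the third. Gsk3b, the kinase that inhibits glycogen synthase, was at 0.96 ± 0.07 (SE, adjusted p = 6.65e-06) on 1 probe set and at 0.24 (adjusted p = 0.0626) on the other. With the 3′/5′ index as a term in the fit the adjusted p of these called probe sets was 0.896, 0.946, 0.946 and 0.716.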
